A study of Homo sapiens with 19 samples.

Results

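The genes described here are 10 markers of epithelial to mesenchymal transition: the transcription factors SNAI1, SNAI2, ZEB1, ZEB2, TWIST1 and TWIST2, the junction and adhesion genes CDH1, CDH2 and EPCAM, and the filament gene VIM. They make up 10 of the 32732 gene identifiers listed in all 14 OS libraries (the culture format of most groups); they are a list of gene names, matched by Ensembl identifier. The libraries are 3′ single-cell RNA sequencing of liver organoids grown from W01, an established human pluripotent stem cell line of wild-type genotype. There were 19 libraries in 9 groups. ULA organoids, untreated, were taken at day 21 (3 libraries) and day 34 (2 libraries). OS organoids were taken at day 25 in 7 groups of 2 libraries: 10 ng/ml TGFB1 and its own control, 500 µM PA and its own control, 500 µM OA and its own control, and OS organoids with no treatment. TGFB1 and PA were given for 5 days after 20 days of culture; the labels do not give the OA schedule, and do not spell out PA, OA, OS or ULA. All groups come from 1 cell line, so differences between donors were not measured. Nothing states that replicate libraries came from separate cultures, so the p-values measure the spread between these libraries, which may be technical.

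In an epithelial to mesenchymal transition, cells loosen the junctions that hold an epithelium together and take on features of migratory mesenchymal cells. SNAIL, ZEB and TWIST proteins are DNA-binding factors best known for repressing CDH1, which encodes E-cadherin, the cadherin of epithelial adherens junctions. CDH2 encodes N-cadherin, which hepatocytes also carry, VIM encodes vimentin, an intermediate filament protein of mesenchymal cells, and EPCAM encodes a surface protein of epithelial cells such as bile duct cells and liver progenitors. TGF-β1 is a classical inducer of the transition and of fibrosis in liver.

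On GRCh38 (GENCODE v44) the genes lie on 7 chromosomes. EPCAM (47345158 to 47387601), ZEB2 (144364364 to 144521057) and TWIST2 (238848032 to 238910534) are on chromosome 2, and VIM (17228241 to 17237593) and ZEB1 (31318495 to 31529814) on chromosome 10. TWIST1 is on chromosome 7 (19020991 to 19117636), SNAI2 on 8 (48917598 to 48921740), CDH1 on 16 (68737292 to 68835537), CDH2 on 18 (27932879 to 28177946) and SNAI1 on 20 (49982980 to 49988886).

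The factors of the SNAIL and ZEB families recognise the E-box CACCTG, which reads CAGGTG on the other strand. RefSeq promoter sequences on GRCh38.p14 were at hand for 5 of the 10 genes: ZEB1 (7 start sites), ZEB2, TWIST2, CDH2 (2 start sites) and VIM. Only ZEB1 held this E-box in the 250 bases before a start, at 2 of its 7 starts. The motif was searched on both strands; 17.5% of 35116 promoters held it in such a window and 2.53% held 2 or more. One ZEB1 start is shown because it held 2, and VIM because its level moved widely in these data; capitals mark the E-boxes, and a match is a description, not a binding site. The windows are chr10:31318966-31319215 and chr10:17227991-17228240, both on the plus strand and both written 5′ to 3′.
ZEB1: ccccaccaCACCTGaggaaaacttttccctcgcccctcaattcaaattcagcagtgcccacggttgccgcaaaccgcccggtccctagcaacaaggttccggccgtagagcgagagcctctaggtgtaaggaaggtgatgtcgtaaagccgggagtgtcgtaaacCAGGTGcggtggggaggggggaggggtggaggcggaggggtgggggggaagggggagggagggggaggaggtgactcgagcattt
VIM: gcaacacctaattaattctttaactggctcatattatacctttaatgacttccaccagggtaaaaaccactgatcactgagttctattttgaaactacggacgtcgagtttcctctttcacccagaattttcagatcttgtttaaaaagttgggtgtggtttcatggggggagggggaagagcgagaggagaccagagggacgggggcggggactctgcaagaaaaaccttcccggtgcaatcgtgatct

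A cell was used when 500 or more genes were found in it and mitochondrial transcripts made up no more than 20% of its molecules, which left 3089 to 12427 cells per library. Levels are the molecule counts (UMIs) of the kept cells summed per library and scaled to a total of 1000000 (CPM). Median depth ran from 1310 to 14305 UMIs per kept cell. The shallowest library was TGFB1 control replicate 1, where 69.6% of kept cells reached 1000 UMIs, against 87.9% to 99.8% in the other 18. Pairs of libraries shared 2 to 43 cell barcodes, at most 0.553%. Because counts come from the 3′ end and are not scaled to length, levels are compared between libraries and not between genes. Hepatocyte markers, which check the liver label, summed to 2170 to 23716 CPM in 17 libraries and to 95.4 and 835 CPM in the 2 ULA day 34 libraries. In sums over all cells, fewer cells of a type and less RNA per cell cannot be told apart.

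After TGFB1, mesenchymal and epithelial members were higher side by side. SNAI2, ZEB1, ZEB2, TWIST1, TWIST2, VIM, CDH1 and EPCAM rose, so 8 of 10 passed the test, and none fell. Of all 19366 genes tested in this comparison, 22.2% were called in either direction and 10.9% upwards, at an adjusted p under 0.05 in edgeR's quasi-likelihood test. The median log2 fold change was 1.41 over the 10 members and -0.05 over all genes.

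VIM was at 576 and 1320 CPM in the 2 control libraries and at 5360 and 4514 CPM in the 2 TGFB1 libraries. Both treated libraries stood above both controls, and the higher control was at more than double the lower one. The fitted log2 fold change was 2.54 ± 0.51 (SE; edgeR adjusted p = 0.00374). Its size moved with the controls, to 2.00 without control replicate 1 and 3.41 without control replicate 2.

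Among the transcription factors, SNAI2, which encodes Slug, was at 3.16 and 3.35 CPM in controls and 13.2 and 15.3 CPM with TGFB1. Its log2 fold change was 2.31 ± 0.41 (edgeR adjusted p = 0.00154). ZEB1 was at 3.41 and 3.27 CPM in controls and 9.58 and 10.9 CPM with TGFB1, a log2 fold change of 1.81 ± 0.37 (edgeR adjusted p = 0.00377). In both genes the control libraries lay close together and far below the treated ones. TWIST1, a basic helix-loop-helix factor of mesoderm and mesenchyme, was at 3.35 and 3.18 CPM in controls and 7.74 and 9.82 CPM with TGFB1 (log2 fold change 1.62 ± 0.30, edgeR adjusted p = 0.00233). SNAI2, ZEB1, TWIST1 and VIM were called under each of the 11 alternative settings.

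ZEB2, the other member of the ZEB family, was at 3.10 and 3.31 CPM in controls and 5.43 and 7.60 CPM with TGFB1 (log2 fold change 1.20 ± 0.39, edgeR adjusted p = 0.0414). TWIST2 was at 1.07 and 0.593 CPM in controls and 2.34 and 2.09 CPM with TGFB1 (log2 fold change 1.70 ± 0.53, edgeR adjusted p = 0.0370). The groups of both genes did not overlap, but both calls were lost without any 1 of the 4 libraries and with predicted doublets removed, and ZEB2 also under the stricter cell filter. SNAI1, which encodes Snail, was at 1.64 and 1.15 CPM in controls and 1.43 and 1.73 CPM with TGFB1. Its groups overlapped and it did not pass the test (log2 fold change 0.41 ± 0.38, edgeR adjusted p = 0.466).

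None of the junction genes fell. CDH1 was at 251 and 190 CPM in controls and 340 and 307 CPM with TGFB1, a log2 fold change of 0.76 ± 0.20 (edgeR adjusted p = 0.0162). EPCAM was at 499 and 822 CPM in controls and 1301 and 1062 CPM with TGFB1, a log2 fold change of 1.01 ± 0.30 (edgeR adjusted p = 0.0293). Treated libraries were the higher ones for both genes. In a fit of the 4 TGFB1 libraries alone, neither call held; CDH1 also lost its call without either TGFB1 library, and EPCAM without either TGFB1 library or without control replicate 1. CDH2 was at 326 and 211 CPM in controls and 333 and 322 CPM with TGFB1, with overlapping groups, and did not pass (log2 fold change 0.50 ± 0.21, edgeR adjusted p = 0.108).

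**Figure D1:**
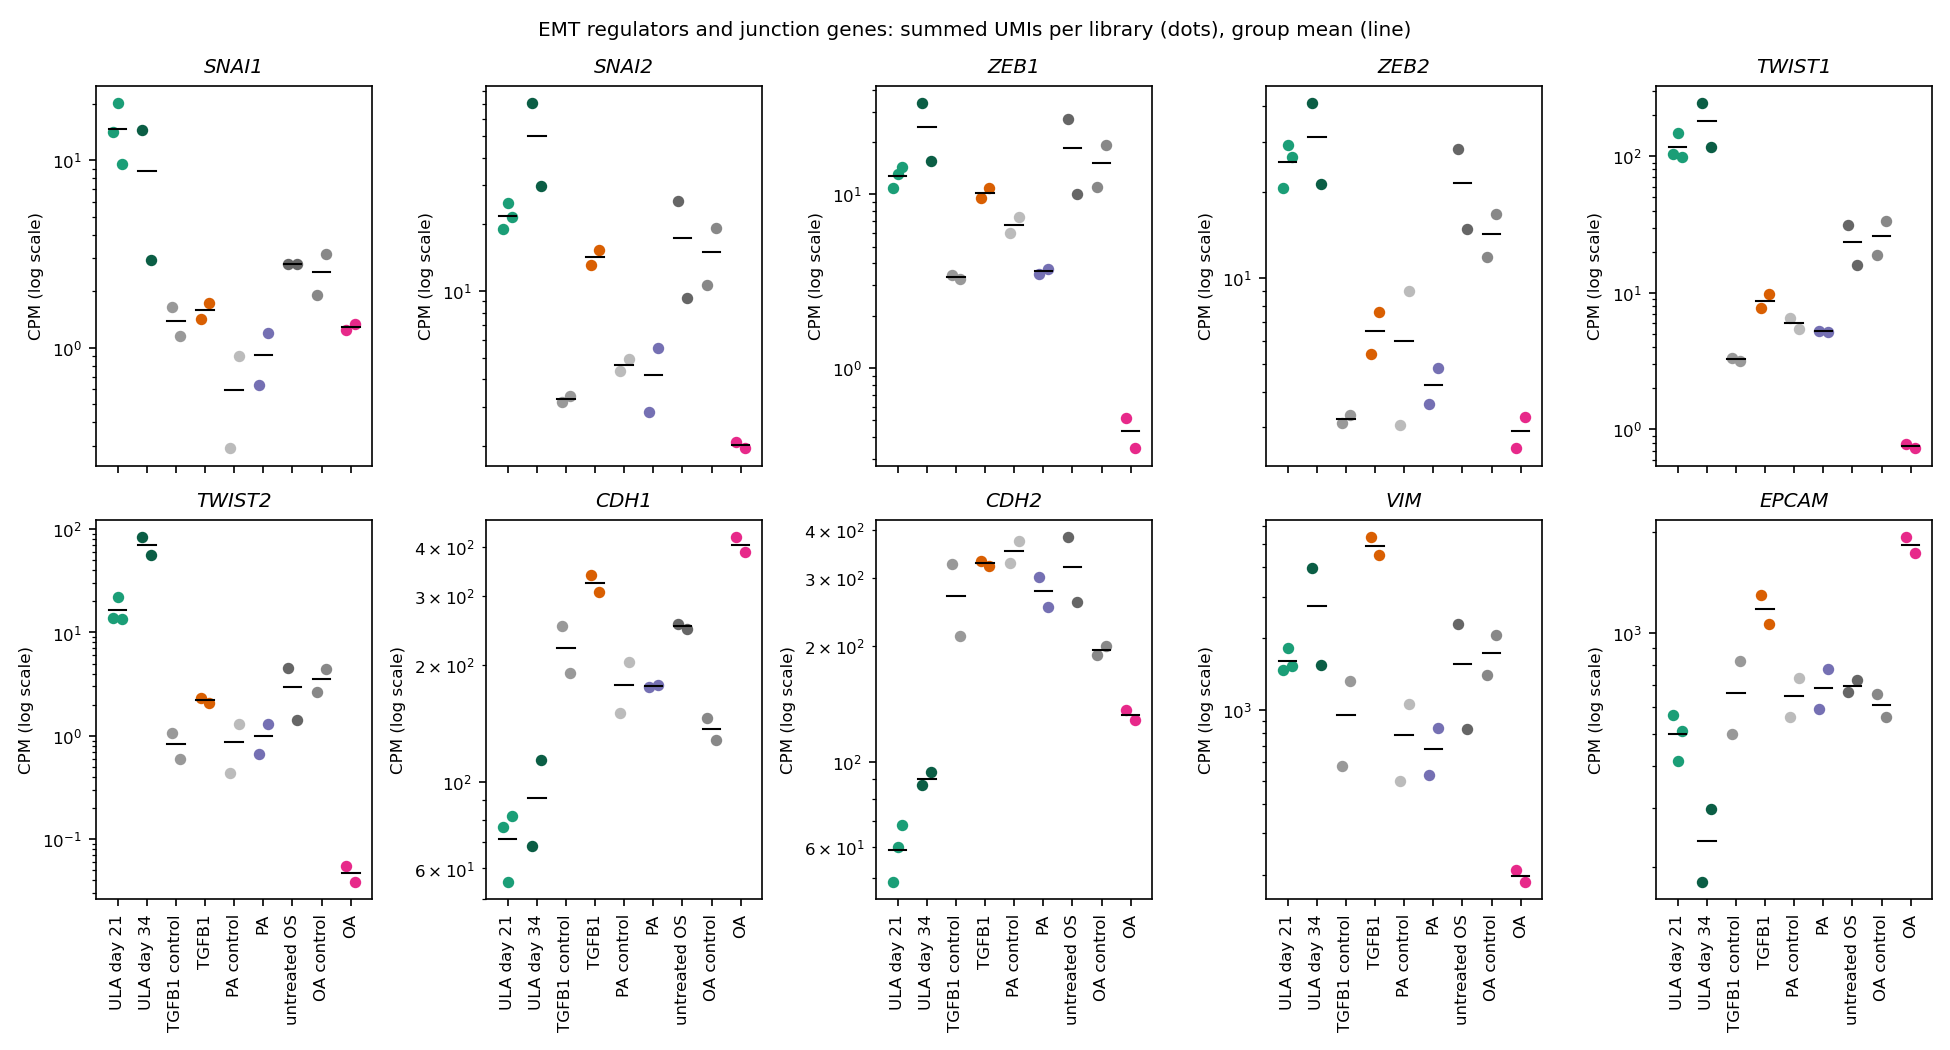
CPM (log scale) of each of the 10 genes in all kept cells, with a dot for each of the 19 libraries and a line at each group mean. VIM stands highest in the TGFB1 libraries (5360 and 4514 CPM) and lowest with OA (210 and 187 CPM), while EPCAM is above both its controls with TGFB1 and with OA.

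Markers of other cell types moved with the treatment too. The share of cells with at least 2 of 10 stromal markers, after thinning each cell to 1000 UMIs, was 3.13% and 2.85% in controls and 5.92% and 7.50% with TGFB1, and the summed level of these markers was 275 to 288 CPM against 485 to 644 CPM. Over all genes 10.9% rose and 11.3% fell. All 5 cycling markers fell. Of 13 hepatocyte markers tested, 7 fell and 1 rose, though their summed level was 2537 to 4299 CPM in controls and 4560 to 5396 CPM with TGFB1. Of 7 gut epithelial markers 4 fell. Endothelial markers summed to at most 7.50 CPM in these libraries, and blood markers to 200 to 228 CPM in controls and 32.8 to 44.2 CPM with TGFB1. In cells with EPCAM detected, the blood markers summed to 218 to 242 CPM in controls and 39.0 to 49.7 CPM with TGFB1. Their sum thus need not stand for blood cells. The part of these shifts in the levels above was not tested. The same genes were measured again within gated cells, where marker levels moved as well.

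EPCAM-detected cells, those with at least 1 EPCAM UMI after thinning to 1000, made up 39.1% and 54.0% of control cells and 64.0% and 60.8% of TGFB1 cells. Within them SNAI2, ZEB1, ZEB2, TWIST1, CDH1 and VIM rose with TGFB1, 6 of the 9 genes that are readouts there (EPCAM defines the gate); 23% of the 17286 genes tested in these cells were called and 11.3% rose. VIM was at 542 and 1184 CPM in control EPCAM-detected cells and 5479 and 4712 CPM in treated ones, a log2 fold change of 2.71 ± 0.49 (edgeR adjusted p = 0.00134). The treated values lay far above both controls. The log2 fold change was 2.19 without control replicate 1 and 3.55 without control replicate 2, called in both.

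SNAI2 was at 1.54 and 0.785 CPM in control EPCAM-detected cells, from 8 and 22 UMIs, and at 8.73 and 10.3 CPM in treated ones, from 257 and 243 UMIs. Its log2 fold change of 3.42 ± 0.44 (edgeR adjusted p = 1.08e-04) held under each of 9 alternatives. ZEB1 was at 1.15 and 0.714 CPM in controls and 4.35 and 3.06 CPM with TGFB1 (log2 fold change 2.30 ± 0.50, edgeR adjusted p = 0.00511). These genes have few molecules in control cells, which limits how precisely a fold can be given. ZEB2 rested on 1 and 11 control UMIs against 54 and 34 treated ones (log2 fold change 2.34 ± 0.58, edgeR adjusted p = 0.0111). ZEB1 and ZEB2 lost their calls without control replicate 2 or without TGFB1 replicate 1, and ZEB2 also in a gate of at least 2 EPCAM UMIs. Without control replicate 2 the ZEB2 log2 fold change was 3.36.

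TWIST1 passed narrowly, with 4 and 22 control UMIs and 67 and 45 treated UMIs (log2 fold change 1.56 ± 0.51, edgeR adjusted p = 0.0425), and none of the 9 alternatives called it. TWIST2 had 3 UMIs in control EPCAM-detected cells and 26 in treated ones, a ratio of levels of 5.44 with a 95% counting interval of 1.67 to 28.1, and did not pass the test (edgeR adjusted p = 0.0771). CDH1 was at 268 and 204 CPM in controls and 384 and 354 CPM with TGFB1 (log2 fold change 0.85 ± 0.19, edgeR adjusted p = 0.00630). CDH1 and the factors SNAI2, ZEB1 and ZEB2 were thus higher in sums over the same gate. After thinning, SNAI2 was detected in 0.852% and 0.798% of treated EPCAM-detected cells, ZEB1 in 0.639% and 0.218%, and ZEB2 in 0.186% and 0.169%. CDH1 was detected in 32.5% and 30.4% of these cells. Whether the factors and CDH1 were higher in the same single cells was not tested. The CDH1 call was lost without TGFB1 replicate 1. SNAI1 and CDH2 did not pass, with log2 fold changes of 0.07 and 0.55.

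Stromal markers were higher in this gate as well. Their summed level in EPCAM-detected cells was 57.1 and 27.6 CPM in controls and 112 and 89.3 CPM with TGFB1, and 12 to 15 control cells and 29 to 37 treated cells per library met both gates. With cells in both gates left out, an alternative chosen after seeing the data, SNAI2, ZEB1, ZEB2, VIM and CDH1 kept their calls. Gut epithelial markers in EPCAM-detected cells summed to 724 to 805 CPM in controls and 96.7 to 126 CPM with TGFB1. Cycling markers went from 203 to 314 CPM to 15.3 to 17.7 CPM, and hepatocyte markers from 2625.5 to 4702.8 CPM to 5204.1 to 5970.5 CPM. The gate thus need not hold the same mix of cells in both groups, and the part of this was not tested.

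In stromal-marker cells themselves none of the 10 genes was called after TGFB1, against 0.299% of 14378 genes tested there. At an unadjusted p under 0.05 there were 2, EPCAM and CDH1, beside 11.5% of genes. SNAI2 was at 59.9 and 47.1 CPM in control stromal-marker cells and 49.2 and 51.7 CPM in treated ones. VIM was at 2063 and 3870 CPM in controls and 4458 and 3276 CPM with TGFB1. For both genes the groups overlapped. These sums hold 209 to 510 cells per library. CDH1, at a log2 fold change of 1.04 ± 0.38, did not pass (edgeR adjusted p = 0.292). The lack of calls is thus not evidence that the genes stayed unchanged. EPCAM was at 88.9 and 56.1 CPM in control stromal-marker cells and 205 and 110 CPM in treated ones (log2 fold change 1.37 ± 0.36, edgeR adjusted p = 0.109); the fit with a replicate block called it, at a log2 fold change of 1.28 and beside 0.995% of genes.

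The difference between these effects was tested directly, with the library as a block and cells in both gates left out. The TGFB1 effect was larger in EPCAM-detected than in stromal-marker cells for SNAI2 (difference of log2 fold changes 3.27 ± 0.33), ZEB2 (2.42 ± 0.47), VIM (2.24 ± 0.18), ZEB1 (2.06 ± 0.38) and CDH2 (0.49 ± 0.17). These are 5 of the 9 readouts (EPCAM defines a gate), where 11.1% of 13674 genes were called and 7.12% were higher. VIM and SNAI2 were called under each of 6 alternatives; without control replicate 2 they were the only ones of these 5 called, and ZEB2 was then at 3.31. The CDH2 call was at the threshold (edgeR adjusted p = 0.0496) and was lost without 3 of the 4 libraries in turn and with predicted doublets removed. CDH1 did not differ detectably (0.36 ± 0.30, edgeR adjusted p = 0.565). Both gates rest on genes whose levels rose with TGFB1, so treated and control gates need not admit the same kinds of cells. The part of this in the differences was not tested.

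**Figure D2:**
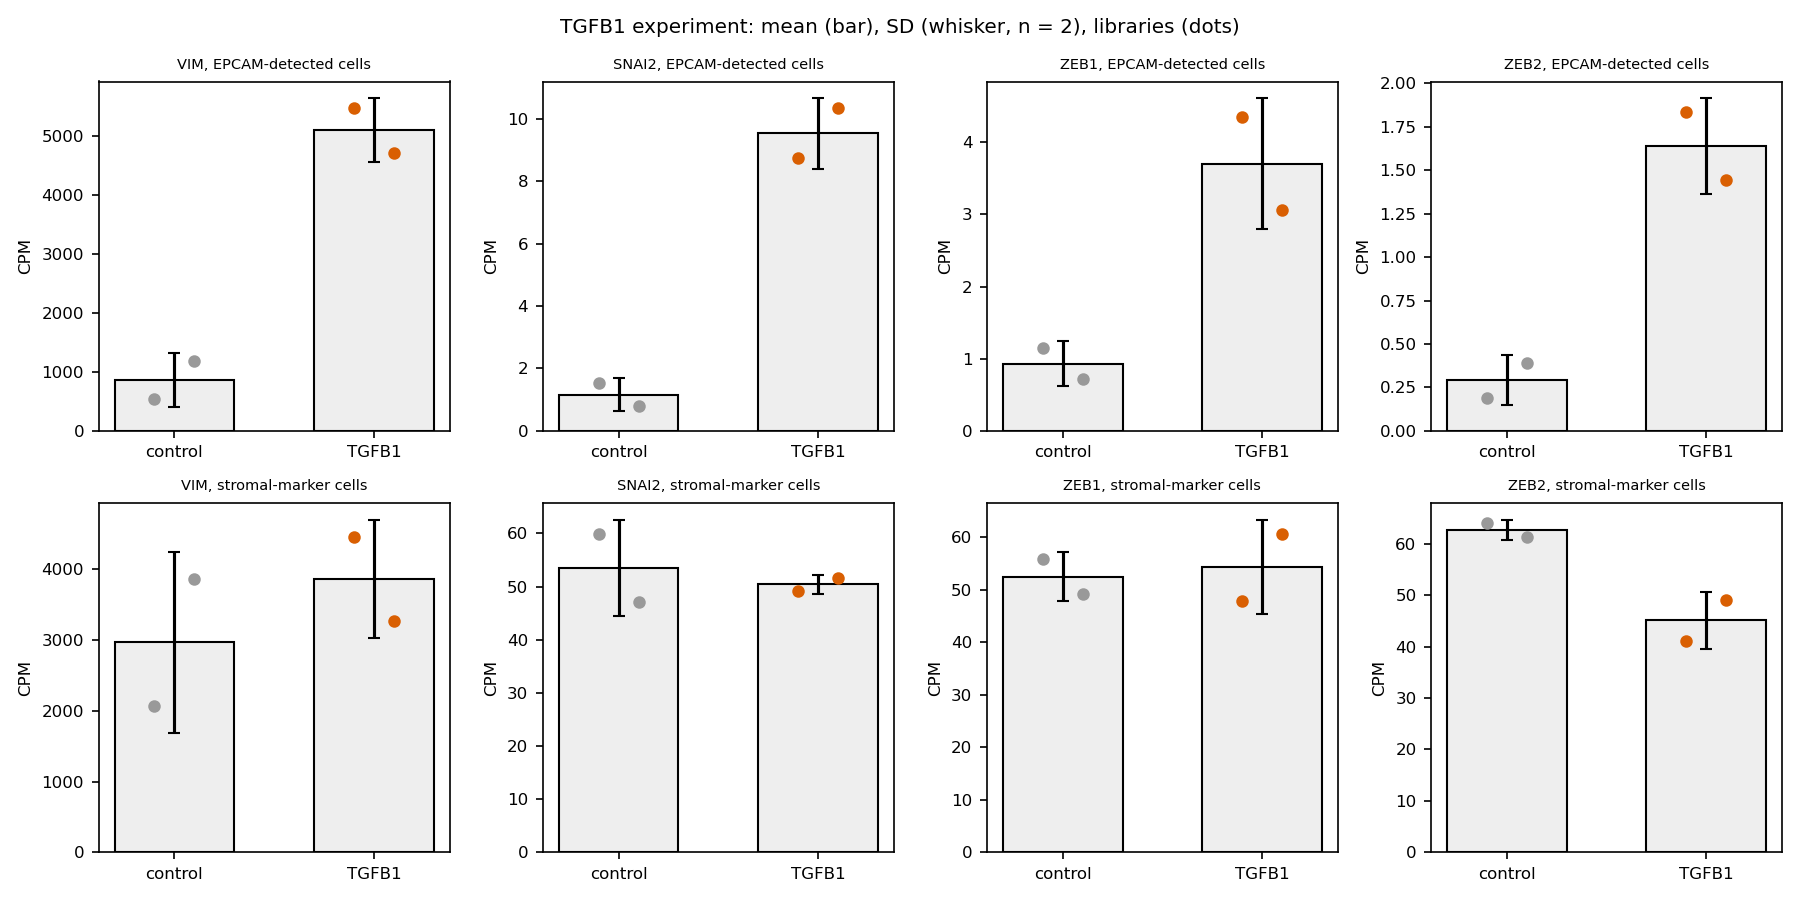
CPM of VIM, SNAI2, ZEB1 and ZEB2 in EPCAM-detected cells (top) and stromal-marker cells (bottom) of the TGFB1 experiment; bars are means, whiskers SD of 2 libraries, dots the libraries. In the top row each treated library is above each control, while in the bottom row the VIM, SNAI2 and ZEB1 groups overlap and both treated ZEB2 values are below the controls.

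The share of each gene's molecules by cell group moved as well. In controls 12.8% and 17.4% of SNAI2 UMIs lay in cells of the EPCAM gate only, and with TGFB1 38.6% to 43.5% did, while the share of all UMIs in such cells was 38.6% to 53.6% and 59.4% to 66.2%. For VIM the same share was 36.1% to 48.1% in controls and 62.2% to 67.8% with TGFB1. Cells of the stromal gate only held 68.0% to 75.6% of ZEB2 UMIs in controls and 51.9% to 61.1% with TGFB1, while holding at most 3.52% and 8.80% of all UMIs.

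Co-detection in single cells was read after thinning to 1000 UMIs. VIM was detected in 35.2% and 55.9% of control cells and in 97.0% and 95.2% of TGFB1 cells. CDH1 was detected in 21.8% and 17.2% of control cells and 27.4% and 25.7% of TGFB1 cells, and EPCAM in 39.1% and 54.0% against 64.0% and 60.8%. All of these shares were higher in both treated libraries than in both controls. The size of a difference moved with the thinning. For CDH1 it was 7.03 percentage points at 1000 UMIs, 11.7 at 2000 and 25.4 without thinning, and for VIM 50.6, 37.6 and 33.6. These settings change the cells read as well as the depth: control replicate 1 had 6688 cells at 1000 UMIs and 9615 without thinning. Without thinning the libraries also differ in depth, with medians of 1310 and 5635 UMIs in controls and 7092.5 and 5201.5 UMIs with TGFB1. With 2 libraries against 2 the exact permutation test cannot go below p = 0.333, and it gave that value for each share.

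Cells with VIM, CDH1 and EPCAM together made up 3.47% and 5.81% of control cells and 20.2% and 17.8% of TGFB1 cells, 4.64% ± 1.65 against 19.0% ± 1.73 (SD, n = 2 each; exact permutation p = 0.333). This difference was 14.4 percentage points at 1000 UMIs, 26.7 at 2000 and 39.4 without thinning, settings that differ in the cells read as well as in depth. Cells with none of the 3 were 31.1% and 16.3% of controls and 1.14% and 1.81% of TGFB1 cells. Among EPCAM-detected cells VIM was found in 44.3% ± 14.1 of controls and 96.5% ± 1.05 with TGFB1 (exact permutation p = 0.333), a difference of 52.2 percentage points that was 32.8 without thinning. Among the other cells it was 46.7% ± 15.6 and 95.4% ± 1.44, so VIM was near universal on either side of the EPCAM gate.

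**Figure D3:**
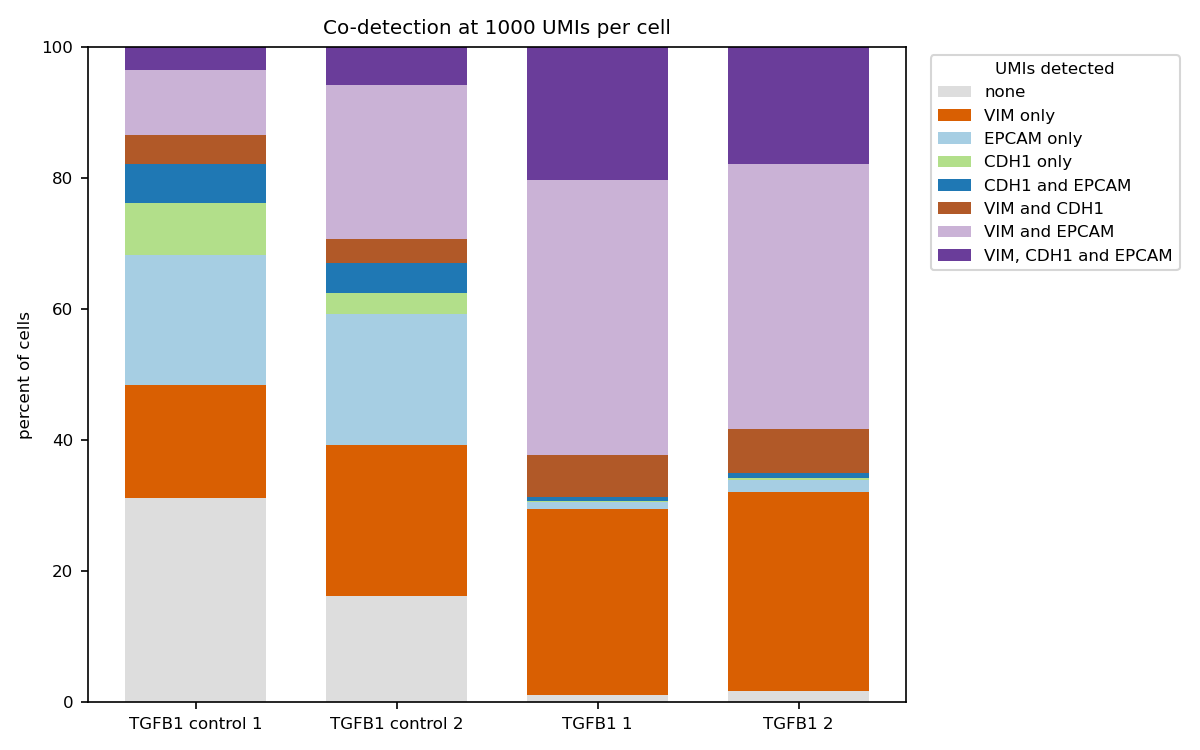
Percent of cells in each class of VIM, CDH1 and EPCAM detection at 1000 UMIs per cell, for the 2 control and 2 TGFB1 libraries. The class with all 3 genes takes 20.2% and 17.8% of the treated libraries against 3.47% and 5.81% of the controls, and the class with none almost vanishes.

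VIM in treated EPCAM-detected cells was mostly not a matter of single molecules. Treated EPCAM-detected cells held a mean of 5.47 and 4.81 VIM UMIs per 1000, and 56.7% and 48.9% of them held at least 5. Control ones held a mean of 0.533 and 1.19, and VIM was found in 34.4% and 54.25% of them. At least 2 VIM UMIs were held by 11.5% and 27.9% of control and 91.1% and 87.7% of treated EPCAM-detected cells. Treated stromal-marker cells held a mean of 4.26 and 3.22, each below the EPCAM-detected cells of the same library.

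Free RNA also gives UMIs in cells that do not express a gene. Hepatocyte-marker cells, used as the background for VIM, held it in 7 of 52 and 17 of 100 control cells, and in 3 of 8 and 5 of 8 TGFB1 cells, too few to set a background after treatment (exact 95% intervals 8.52% to 75.5% and 24.5% to 91.5%). Their median depth was 1585 and 7997 UMIs in controls and 7122 and 4893 UMIs with TGFB1, beside 1652, 5704, 7156 and 5230 UMIs over all cells read. Stromal-marker cells held EPCAM in 7.18% and 5.06% of controls and 10.6% and 5.69% with TGFB1, and CDH1 in 1.91%, 0.844%, 4.60% and 3.33%. In these 4 libraries those shares are far below the ones over all cells. The part of free RNA in VIM detection was not tested.

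Lists of related genes are given beside the 10.9% of all genes that rose and the 11.3% that fell with TGFB1. Of 18 mesenchymal genes often followed in the transition, 17 rose and none fell, with ITGAV, an integrin subunit, up by 2.10, the matrix protease MMP2 by 3.20 and the matrix protein TGFBI by 2.64 on the log2 scale. Of 18 other EMT regulators 6 rose, among them FOXC2 (log2 fold change 3.27) and FOXC1 (1.56), and 2 fell, among them ID2 (-1.53), an inhibitor of helix-loop-helix factors. Of 16 genes that maintain the epithelial state 6 fell and 1 rose: FOXA2, a liver and endoderm factor, fell by 3.35 and KLF5 fell by 1.83, while GRHL3 rose by 3.51.

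Of 11 adherens junction partners 1 fell, ARVCF (log2 fold change -0.85), and of 18 tight junction genes 1 rose, CLDN7 (1.40), a claudin that binds EPCAM; these counts are near or below the shares over all genes, 11.3% lower and 10.9% higher. Of 11 desmosome genes 4 rose, with DSP at 1.61, DSC2 at 1.22 and DSG2 at 0.93, and 1 fell. Among other cadherins, CDH11 (1.57), a mesenchymal cadherin, and CDH15 (3.33) rose. Of 11 intermediate filament genes 3 rose: NES (2.28), KRT7 (4.07), a duct keratin, and LMNA (0.95). The median log2 fold change of the tight junction list was -0.08 and of the mesenchymal list 2.00, beside -0.05 over all genes.

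With OA the mesenchymal members were lower and the epithelial ones higher. SNAI2, ZEB1, ZEB2, TWIST1, TWIST2 and VIM fell against the OA control and CDH1 and EPCAM rose, 8 of 10 called, in a comparison where 43.3% of genes were called, 21.6% downwards and 21.7% upwards. These 8 calls held under every alternative setting tried. Stromal-marker cells were 33.0% and 31.3% of OA control cells and 1.08% and 1.70% of OA cells, and all 10 stromal markers fell. Of 13 hepatocyte markers 9 rose, and of 7 gut epithelial markers 5 rose. Fewer such cells and less RNA in them cannot be told apart in these sums.

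VIM was at 1407 and 2078 CPM in OA controls and 210 and 187 CPM with OA (log2 fold change -2.78 ± 0.52, edgeR adjusted p = 8.91e-04). ZEB1 was at 11.1 and 19.3 CPM in controls and 0.518 and 0.344 CPM with OA (log2 fold change -4.77 ± 0.43, edgeR adjusted p = 4.78e-06). TWIST1 was at 18.9 and 33.3 CPM in controls and 0.777 and 0.727 CPM with OA (log2 fold change -4.76 ± 0.34, edgeR adjusted p = 1.29e-06). For all 3 genes the OA libraries lay close together, far below both controls. SNAI2 was at 10.7 and 19.2 CPM in controls and 2.09 and 1.95 CPM with OA (log2 fold change -2.53 ± 0.41), and ZEB2 at 11.9 and 16.8 CPM in controls and 2.53 and 3.27 CPM with OA (-1.96 ± 0.38). TWIST2 had 378 UMIs in controls and 5 with OA, a ratio of levels of 0.0135 (95% counting interval 0.00436 to 0.0318), and was called. The groups of these 3 genes did not overlap either. The OA control libraries also enter the comparison with untreated organoids further on.

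CDH1 was at 145 and 128 CPM in OA controls and 424 and 388 CPM with OA (log2 fold change 1.90 ± 0.21, edgeR adjusted p = 1.75e-05). EPCAM was at 657 and 561 CPM in controls and 1930 and 1729 CPM with OA (1.92 ± 0.31, edgeR adjusted p = 3.01e-04). Both epithelial genes were higher in each OA library than in each control. SNAI1 (log2 fold change -0.62) and CDH2 (-0.22) did not pass.

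Within EPCAM-detected cells, 40.3% of genes were called with OA (20.9% higher, 19.4% lower), and 6 of the 9 readouts were: SNAI2 (log2 fold change -1.26), ZEB1 (-2.14), TWIST1 (-3.64), TWIST2 and VIM (-2.61) fell and CDH1 (1.45) rose. VIM was at 953 and 1282 CPM in control EPCAM-detected cells and 156 and 137 CPM with OA, with no overlap. TWIST2 rested on 12 control UMIs and 1 OA UMI, a ratio of levels of 0.0450 with a 95% counting interval of 0.00105 to 0.304. TWIST1 was at -4.52 without OA replicate 1. SNAI2, ZEB1 and TWIST2 each lost their call in 3 alternatives; TWIST1, VIM and CDH1 kept it in all of those in which they were tested. ZEB2 was at 1.80 and 1.69 CPM in controls and 1.63 and 2.54 CPM with OA, which overlap, and did not pass (log2 fold change 0.55 ± 0.43). With cells in both gates left out it was called higher, at 1.19. Stromal markers summed to 204 and 257 CPM in control EPCAM-detected cells and 70.5 and 44.8 CPM with OA. Gut epithelial markers there went from 3181 to 4802 CPM to 13890 to 15006 CPM. Hepatocyte markers went from 13261 to 15142 CPM to 20417 to 21035 CPM. Ductal markers went from 2475 to 3550 CPM to 1665 to 1686 CPM, and cycling markers from 227 to 228 CPM to 61.5 to 87.5 CPM. The gated cells thus need not be of the same kinds in both groups, and the part of these shifts was not tested. Stromal-marker cells with OA numbered 32 and 53, under the minimum of 50 cells in every library, so the full comparison was not tested there. With OA replicate 1, the library of 32 cells, left out, 4 of 10 members were called, beside 6.11% of genes; OA then has 1 library, which is assumed to vary like the other groups. CDH1 was at 26.2 and 12.5 CPM in control stromal-marker cells and 108 CPM in OA replicate 2 (log2 fold change 2.33 ± 0.41, edgeR adjusted p = 0.00117), and at 153 CPM in the library left out. EPCAM was at 88.4 and 57.7 CPM in controls and 240 CPM in OA replicate 2 (1.55 ± 0.41, edgeR adjusted p = 0.0233), and at 472 CPM in the library left out. Both genes were higher in each OA library than in each control. The share of stromal-marker cells that also met the EPCAM gate was 12.5% and 22.6% with OA (4 of 32 and 12 of 53 cells) and 7.22% and 3.85% in controls, and both genes rose over all kept cells too; the part of epithelial RNA in these values was not tested. ZEB2 was called lower from 9 UMIs, at 51.3 and 50.9 CPM in controls and 17.1 CPM in OA replicate 2, with the library left out at 20.4 CPM. ZEB1 was called lower from 3 UMIs in OA replicate 2; the library left out was at 40.7 CPM and the controls at 50.9 ± 6.95 CPM (SD, n = 2).

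Of all genes 21.7% rose and 21.6% fell with OA. Of 18 tight junction genes 15 rose with OA, with CGN, which encodes cingulin, at a log2 fold change of 2.03, MARVELD3 at 1.92 and PATJ at 1.38. Of 11 adherens junction partners 7 rose, AFDN (1.57) and CTNNA1 (1.26) among them, and none fell. Of 18 other EMT regulators 13 fell, with TCF4 at -3.97 and PRRX1 at -5.11, and 1 rose. FOXF1, among those that fell, was at a mean of 9.56 CPM in controls and 0.0466 CPM with OA. Of the 18 mesenchymal genes 14 fell, with the collagen gene COL1A1 at -5.86, and 3 rose.

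**Figure D4:**
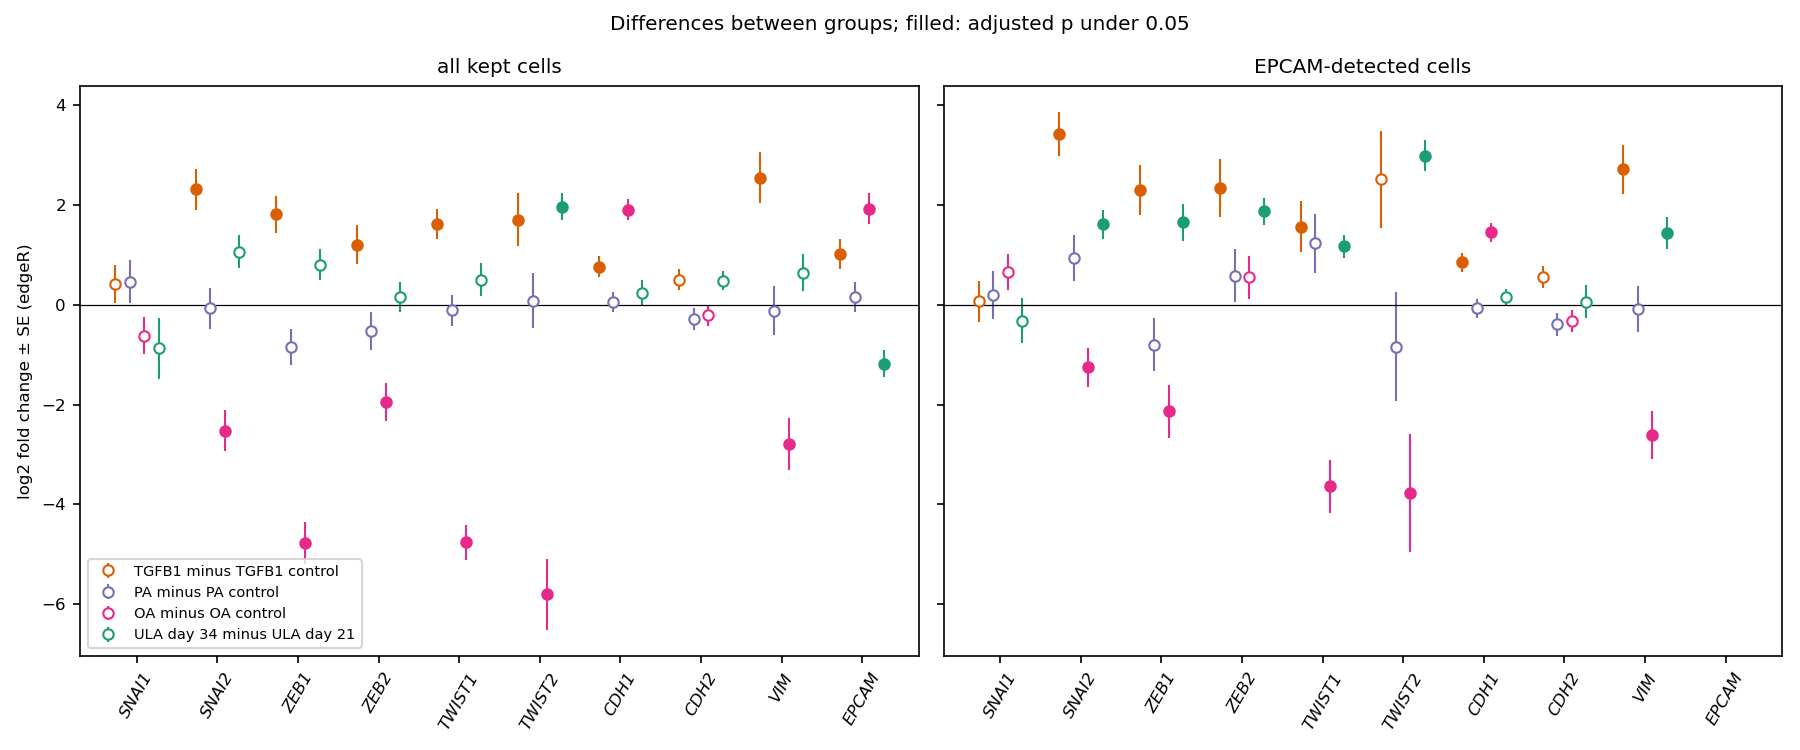
Log2 fold change with SE for each gene in 4 comparisons, in all kept cells (left) and EPCAM-detected cells (right); filled points passed an adjusted p under 0.05, and EPCAM is not a readout on the right. In all kept cells VIM is 2.54 with TGFB1 and -2.78 with OA, while CDH1 is 0.76 and 1.90, above 0 in both.

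PA moved none of the 10 genes past the test, in all kept cells, EPCAM-detected cells or stromal-marker cells. In these cell sets edgeR called 0.0465%, 0.0752% and 0.0626% of genes. DESeq2, run on all kept cells, called none of the members either, beside 0.263% of genes. VIM was at 502 and 1059 CPM in PA controls and 528 and 835 CPM with PA. EPCAM was at 561 and 733 CPM in controls and 591 and 782 CPM with PA. Both genes overlapped between groups. The largest fitted change in all kept cells was ZEB1, at 5.96 and 7.46 CPM in controls and 3.49 and 3.73 CPM with PA (log2 fold change -0.85 ± 0.37), the 1 member of 10 under an unadjusted p of 0.05 there, beside 2.79% of genes (edgeR quasi-likelihood adjusted p = 1). Its groups did not overlap. At an unadjusted p under 0.05 there were none of 9 in EPCAM-detected cells, beside 2.57% of genes, and 1 of 10, CDH1, in stromal-marker cells, beside 5.64% of genes.

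Between the OA control and untreated OS organoids none of the 10 genes passed the test in all kept cells, where 0.573% of genes were called. There CDH1 and CDH2 had an unadjusted p under 0.05, 2 of 10 beside 14.6% of genes, and DESeq2 called CDH1, 1 of 10 beside 3.62% of genes. CDH1 was at 254 and 247 CPM in untreated libraries and 145 and 128 CPM in OA controls (log2 fold change -0.72 ± 0.20, edgeR adjusted p = 0.126). VIM varied within the untreated pair, at 2300 and 825 CPM, more widely than the OA controls at 1407 and 2078 CPM. In EPCAM-detected cells none of 9 passed, beside 1.21% of genes; 4 had an unadjusted p under 0.05, ZEB1, ZEB2, CDH1 and CDH2, beside 18.1% of genes. Without untreated replicate 2, ZEB1 (log2 fold change -2.10) and ZEB2 (-1.77) were called, beside 2.46% of genes. In stromal-marker cells CDH1 was called lower in OA controls (-1.59 ± 0.30, edgeR adjusted p = 0.0219; 0.556% of genes called, 0.549% lower), a call lost with 3 markers in the gate, with cells in both gates left out, and without untreated replicate 1 or OA control replicate 2. Without OA control replicate 1 it was at -2.24.

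In ULA organoids the older libraries differed in 2 members over all kept cells, beside 15.6% of 22257 genes (8.43% higher, 7.18% lower). TWIST2 was at 13.9, 22.0 and 13.4 CPM at day 21 and 83.7 and 56.6 CPM at day 34 (log2 fold change 1.96 ± 0.28, edgeR adjusted p = 0.00615). EPCAM was at 569, 416 and 510 CPM at day 21 and 180 and 298 CPM at day 34 (log2 fold change -1.18 ± 0.27, edgeR adjusted p = 0.0276). Neither gene's groups overlapped. The 2 day 34 libraries stood apart from each other: VIM was at 3955 CPM in replicate 1 and 1544 CPM in replicate 2, with day 21 at 1468 to 1825 CPM, and without day 34 replicate 2, 6 members were called beside 30.7% of genes. Hepatocyte markers (7 of 13) and gut epithelial markers (6 of 7) fell between these days. The TWIST2 call was lost without day 21 replicate 3, and the EPCAM call without any 1 of the 3 day 21 libraries and under the stricter cell filter; the replicate block called 0 of the 22257 genes, members included.

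In EPCAM-detected ULA cells 6 of 9 readouts rose by day 34, beside 18.1% of genes called and 9.79% higher: SNAI2, ZEB1, ZEB2, TWIST1, TWIST2 and VIM. TWIST2 rose from 1.24, 1.51 and 1.97 CPM to 10.4 and 17.3 CPM (log2 fold change 2.98 ± 0.32), and ZEB2 from 2.42, 3.08 and 4.02 CPM to 12.5 and 12.9 CPM (1.86 ± 0.28). VIM was at 397, 330 and 424 CPM at day 21 and 1509 and 739 CPM at day 34 (1.43 ± 0.33). No group overlapped in these 3 genes. CDH1 did not pass (0.15 ± 0.17). Without day 21 replicate 1 or replicate 2, 2 members were called, beside 5.45% and 6.49% of genes. Without day 21 replicate 3, 3 were, beside 5.29%, and with a replicate block 1 was, beside 2.75%. VIM was at 0.76 without day 34 replicate 1 and kept its call. Stromal markers in these cells summed to 726 to 844 CPM at day 21 and 868 to 1909 CPM at day 34. Gut epithelial markers there were at 2394 to 3037 CPM at day 21 and 7.86 to 173 CPM at day 34. Hepatocyte markers went from 3406 to 4723 CPM to 156 to 1607 CPM, and ductal markers from 1864 to 2326 CPM to 4091 to 4743 CPM. The gated cells thus need not be of the same kinds on both days, and the part of these shifts was not tested. The EPCAM gate is less selective here: stromal-marker cells held EPCAM in 18.9%, 10.2% and 14.8% at day 21 and 7.72% and 12.6% at day 34, where the shares over all cells were 31.6%, 20.0%, 27.2%, 14.8% and 22.6%. The part of free EPCAM RNA in this gate was not tested. With cells in both gates left out the same 6 genes were called.

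In ULA stromal-marker cells TWIST2 (log2 fold change 2.33), CDH2 (1.00), TWIST1 (0.76) and ZEB1 (0.73) rose and EPCAM (-1.20) fell by day 34, 5 of 10 beside 16.3% of genes (9.71% higher, 6.59% lower). CDH2 was at 49.4, 52.5 and 74.6 CPM at day 21 and 111 and 144 CPM at day 34, without overlap. Leaving out 1 library in turn gave 1 to 7 called members. Without day 21 replicate 1 only TWIST2 was called, beside 4.38% of genes, and without day 34 replicate 2, 7 members were, beside 26.9%. The replicate block left TWIST2 and CDH2, beside 2.06% of genes. Among the lists, 9 of 11 desmosome genes rose over all kept cells and 1 fell, beside 8.43% of genes higher and 7.18% lower there, with DSC3 at a log2 fold change of 3.52 and DSG3 at 4.95. DSG1 was at a mean of 0.00896 CPM at day 21 and 6.26 CPM at day 34.

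Across the 9 groups each gene had its own order of levels in all kept cells, given here as a description across groups with different gene lists and depth. SNAI2 was highest in ULA day 34 (mean 50.2 CPM) and lowest with OA (2.02 CPM), with 5 of 8 neighbouring groups overlapping. VIM was highest with TGFB1 and lowest with OA, with 6 of 8 neighbours overlapping. TWIST1 had the fewest overlapping neighbours, 2 of 8. CDH1 was highest with OA and lowest in ULA day 21, EPCAM highest with OA and lowest in ULA day 34, with 4 and 5 of 8 neighbours overlapping.

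Genes with the most similar pattern over the 14 OS libraries were found by Pearson correlation of log2(CPM + 1) among 8724 genes with a mean of at least 10 CPM. VIM was most like FJX1 (r = 0.987), IGFBP7 (0.976) and SMIM29 (0.971). CDH1 was most like MIA2 (0.960), BAIAP2L1 (0.952) and DSG2 (0.947), and EPCAM most like TTC39A (0.966), HTATIP2 (0.945) and TMBIM6 (0.945). TWIST1 was most like EDNRA (0.986), DNM3OS (0.982) and GREM1 (0.974), and CDH2 most like STAT2 (0.928), CNTN4 (0.920) and NEDD9 (0.901). These correlations rest on 14 libraries that share treatments and depth and carry no test.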

How the data were processed

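The deposited counts are UMI counts per gene and cell in 19 matrices, per the file headers and the labels' protocols (10x Genomics single cell 3′ v3). Per the submitters' processing notes Cell Ranger 3.0.2 and genome build GRCh38 were used; the file headers name 3.0.2, and 6.0.2 for the OA, OA control and untreated OS libraries. The matrices list 58721 genes (ULA), 33538 (TGFB1 and PA experiments) or 36601 genes. The members and gene lists were chosen with earlier results of these data known. Named list genes are up to 3 called members per list and comparison with the smallest p. One gene that this rule names is not reported here.

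Counts of kept cells were summed per library and tested with edgeR 4.0.16 (TMM, filterByExpr, quasi-likelihood) in R 4.3.3, with all 14 OS libraries in 1 fit and the 5 ULA libraries in another, Benjamini-Hochberg adjusted over all genes tested. Gated sums needed at least 50 cells per library. Gates were set after thinning each cell to 1000 UMIs: at least 1 EPCAM UMI, at least 2 of 10 stromal markers, or at least 5 of 14 hepatocyte markers with under 2 stromal ones. Predicted doublets were kept; 1 alternative removed the cells with the highest Scrublet scores, 0.8% per 1000 barcodes, since the automatic threshold marked almost none in most libraries and 19.5% in ULA day 34 replicate 2. Shares were compared with exact two-sided permutation tests. Intervals and UMI floors cover counting error only. On simulated counts for the TGFB1 comparison (18617 genes), the test recovered 1% of 2-fold and 65% of 4-fold changes. For ULA (21813 genes) it recovered 7% and 86%. The simulation changed only 100 genes at each fold and gave every gene the same spread. In the data many more genes were called and the spread differs by gene, so these shares need not hold there. Other normalization, filters, cell filters, gates, thinning depths, DESeq2 1.42.0, a replicate block and leaving out each library were tried as alternatives. Promoter sequences come from RefSeq (GRCh38.p14).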

Additional observations from a re-analysis of the deposited data

Results flagged for a closer look

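The effect of TGFB1 differed between EPCAM-detected and stromal-marker cells in 5 genes by a direct test of the difference (edgeR, library as a block). The differences of log2 fold changes were 3.27 for SNAI2, 2.42 for ZEB2, 2.24 for VIM, 2.06 for ZEB1 and 0.49 for CDH2. Of all 13674 genes in this test, 11.1% were called and 7.12% were higher. The CDH2 call was at the threshold (edgeR adjusted p = 0.0496) and was lost with predicted doublets removed. Both gates rest on genes whose levels rose with TGFB1. With cells in both gates left out, the stromal-marker sums of this test rest on 194 to 481 cells per library, and the ZEB2 sums of control EPCAM-detected cells on 1 and 11 UMIs.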

How the results depend on the processing

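No called value changed sign, and 1273 of 1386 log2 fold changes stayed on the same side of the threshold with the same sign or with neither value called. In 90 settings the sign changed with neither value called. A call was lost for 94 of the 1386 values and gained for 19. The cause was not tested.

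Members called under leaving out 1 library ranged from 4 to 6 (8 in full) for TGFB1 in all kept cells, 2 to 5 (6) in EPCAM-detected cells, 3 to 6 (6) for OA in EPCAM-detected cells, 0 to 2 (0) for OA control against untreated in EPCAM-detected and 0 to 1 (1) in stromal-marker cells, 0 to 6 (2), 2 to 7 (6) and 1 to 7 (5) for ULA in all kept, EPCAM-detected and stromal-marker cells, and 2 to 5 (5) for the difference of effects. DESeq2 called 1 member for OA control against untreated, beside 3.62% of genes (0 in edgeR, beside 0.573%). For ULA in all kept cells, no filter gave 4, beside 5156 of 38605 genes, and the stricter cell filter 1, beside 2791 of 22079 genes. For OA control against untreated stromal-marker cells, 3 markers or cells in both gates left out gave 0, and the latter gave 3 for ULA stromal-marker cells. The number of genes called over all genes also moved across these alternatives, as given below. The member counts are thus to be read beside it and not as results about the members alone.

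Nothing in the labels ties same-numbered replicates to each other, and with 2 pairs a comparison no pairing was taken from the data (correlations of their deviations -0.557 for TGFB1, 0.167 for PA, 0.0765 for OA, -0.667 for OA control against untreated, -0.219 and -0.286 for ULA). With a replicate block, 0, 1 and 2 members were called for ULA in all kept, EPCAM-detected and stromal-marker cells, beside no gene, 2.75% and 2.06% of genes, and 1 for TGFB1 in stromal-marker cells, beside 0.995%.

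TGFB1 minus control for VIM was 50.6 percentage points at 1000 UMIs, 37.6 at 2000 and 33.6 without thinning; for CDH1 7.03, 11.7 and 25.4; for all 3 genes 14.4, 26.7 and 39.4; for VIM among EPCAM-detected cells 52.2, 38.8 and 32.8. Leaving out 1 library gave 40.2 to 60.9, 4.71 to 9.34, 13.1 to 15.6 and 42.3 to 62.1, and 8.33 to 23.3 for EPCAM. The thinning settings also differ in the cells read, and without thinning the libraries differ in depth.

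Genes called over all genes moved more widely. Over all alternatives, TGFB1 gave 1704 to 5554 (4295 in full) in all kept, 1687 to 4845 (3972) in EPCAM-detected and 2 to 367 (43) in stromal-marker cells, PA 0 to 162 (9), 0 to 21 (13) and 0 to 56 (9), OA 5171 to 10866 (8378) and 4012 to 6894 (6965), OA control against untreated 0 to 701 (111), 0 to 446 (210) and 5 to 285 (80), ULA 0 to 7165 (3475), 487 to 6636 (3197) and 363 to 4988 (2879), and the difference of effects 605 to 1552 (1523).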
